A study of Homo sapiens with 6 samples.

Results

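The genes described here supply, place or oxidise the peroxidisable phospholipids that are destroyed in ferroptosis, a form of cell death that needs iron and peroxidised lipids. They were chosen by symbol as ACSL4, LPCAT3, AGPS, GNPAT, FAR1, POR, CYB5R1, PTGS2, PLA2G4A and PLA2G6, and each of the 10 stood on 1 of the 21619 entries of the deposited tables. PolyA RNA had been sequenced from HT1080, a human fibrosarcoma line of connective tissue, in 3 libraries of cells with stable PGK1 overexpression (PGK1_OE) and 3 libraries of cells labelled wild type (WT). PGK1 is the glycolytic enzyme phosphoglycerate kinase 1, and the series asks about its role in ferroptosis. The labels do not say whether the overexpressing line is 1 clone or a pool, which promoter drives PGK1, whether the WT cells carry an empty vector, or whether the replicates were separate cultures. The p-values are thus set against the spread of these 6 libraries, and that spread may be purely technical.

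In ferroptosis, polyunsaturated fatty acids are first joined to coenzyme A by ACSL4 and then placed into lysophospholipids by LPCAT3. A separate peroxisomal route makes ether phospholipids: FAR1 reduces a fatty acyl-CoA to the fatty alcohol, GNPAT adds an acyl chain to dihydroxyacetone phosphate, and AGPS exchanges that chain for the alcohol. The NADPH oxidoreductase POR and the NADH-cytochrome b5 reductase CYB5R1 pass electrons at the endoplasmic reticulum and are described as sources of the peroxides that start lipid oxidation. The phospholipases PLA2G4A and PLA2G6 cut fatty acids from phospholipids, and PTGS2 (cyclooxygenase-2), which oxidises released arachidonic acid to prostaglandin precursors, is widely used as an mRNA marker of ferroptosis.

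The libraries held 35851668 to 40538274 counts in PGK1_OE and 34425162 to 37500947 counts in WT. PGK1 mRNA, which checks the labels, stood at 12660 ± 597 normalised CPM in PGK1_OE and 523 ± 4.03 normalised CPM in WT (SD, n = 3 each), where CPM is the count scaled to library size and TMM factor. Of 6 mesenchymal markers, VIM, FN1, CDH2 and CD44 were high and THY1 and S100A4 low. The 3 that rose were VIM, FN1 and CD44, and the 2 that fell were CDH2 and THY1. Over all entries tested, 71.2% rose or fell at the same edgeR adjusted p under 0.05. The summed level of the 6 mesenchymal markers was 5350 to 5458 CPM in PGK1_OE and 2993 to 3457 CPM in WT. The epithelial marker EPCAM and the blood cell marker PTPRC had 0 counts in all 6 libraries, and the keratin genes KRT8 and KRT18, which rose, brought the 6 epithelial markers to 313 to 328 CPM in PGK1_OE and 151 to 170 CPM in WT. Of these 6, 2 rose and 1 fell, CDH1, which had 0 counts in each PGK1_OE library and 17, 28 and 16 in the WT libraries. CD68 accounted for nearly all of the 5 blood cell markers (220 to 248 CPM in PGK1_OE, 215 to 239 CPM in WT), and the 4 endothelial markers summed to 10.1 to 13.3 CPM in PGK1_OE and 4.13 to 5.38 CPM in WT. Of these 4, PECAM1 rose 3.29-fold (edgeR adjusted p = 7.58e-06). The part of these differences in the results below was not tested. In bulk RNA, fewer cells with a transcript and less of it per cell cannot be told apart.

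The start regions of 4 of the genes are shown, for the pair of lowest expressed genes and for 2 ether lipid genes with far higher levels. PTGS2 and PLA2G4A lie beside each other on chromosome 1 and point away from each other, with 148.5 kb and no protein-coding gene between their starts (GENCODE 29, GRCh38). FAR1 and GNPAT are well-expressed genes of ether lipid synthesis. RefSeq promoters (GRCh38.p14) were matched by symbol for 8 of the 10 genes, each 300 bases long with 250 before and 50 after the start. The 240 bases from -250 to -11 are given, in lower case, with capitals for the TATA box motif TATAAA, the CCAAT box and the E-box CACGTG on either strand. PTGS2 is at chr1:186680434-186680673 (minus strand), PLA2G4A at chr1:186828699-186828938 (plus), FAR1 at chr11:13668418-13668657 (plus) and GNPAT at chr1:231240962-231241201 (plus).
PTGS2: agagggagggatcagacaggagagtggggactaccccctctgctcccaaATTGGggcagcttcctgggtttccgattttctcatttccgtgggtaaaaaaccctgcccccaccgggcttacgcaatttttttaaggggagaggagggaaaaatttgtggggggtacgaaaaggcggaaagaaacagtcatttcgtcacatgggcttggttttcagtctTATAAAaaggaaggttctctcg
PLA2G4A: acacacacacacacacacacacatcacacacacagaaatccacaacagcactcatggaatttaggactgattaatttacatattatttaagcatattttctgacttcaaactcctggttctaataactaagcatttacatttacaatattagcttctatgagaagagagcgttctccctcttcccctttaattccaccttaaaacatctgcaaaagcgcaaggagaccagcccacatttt
FAR1: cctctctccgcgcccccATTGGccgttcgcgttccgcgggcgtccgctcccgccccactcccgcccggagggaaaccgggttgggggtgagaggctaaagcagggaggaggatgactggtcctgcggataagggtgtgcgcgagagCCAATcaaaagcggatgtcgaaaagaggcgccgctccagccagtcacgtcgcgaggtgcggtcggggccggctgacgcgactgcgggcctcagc
GNPAT: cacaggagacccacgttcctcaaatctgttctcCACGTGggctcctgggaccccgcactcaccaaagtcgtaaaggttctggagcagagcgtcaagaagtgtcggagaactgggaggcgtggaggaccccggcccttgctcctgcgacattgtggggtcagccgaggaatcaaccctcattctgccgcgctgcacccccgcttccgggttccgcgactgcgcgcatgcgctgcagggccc

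In PTGS2 a TATAAA began 32 bases before the start, at -32, and no other of the 8 windows held one, while 11.5% of 35116 RefSeq promoters did. CCAAT was found in the windows of LPCAT3, FAR1, PTGS2 and PLA2G6 (34.6% of all promoters), and the E-box CACGTG in those of GNPAT and PLA2G6 (7.26%). GGGCGG was present in ACSL4, LPCAT3, AGPS, FAR1 and PLA2G6 (45.0%). TGACGTCA was in none of the 8 windows and in 1.85% of all. Both strands were searched. No match of one motif overlapped a match of another, and in ACSL4 a pair of GGGCGG matches overlapped each other. The PLA2G4A window, which opens with a CA repeat, held none of them. G and C made up 50.7% of the PTGS2 window and 39.7% of the PLA2G4A window, and 65.0% to 77.7% of the other 6. The RefSeq start used for PLA2G6 lies 23860 bases downstream of its GENCODE start, and those of ACSL4 and AGPS lie 146 and 129 bases downstream. These matches describe letters in a window and do not show binding.

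Of the 10 genes, 9 passed the filter on low counts, and PLA2G4A did not. LPCAT3 and AGPS rose, CYB5R1, PTGS2 and PLA2G6 fell, and ACSL4, FAR1, GNPAT and POR did not pass an edgeR adjusted p under 0.05. These 5 calls compare with 71.2% of all 14322 entries tested, 35.4% called higher and 35.8% called lower, and the 5 of 9 are not above that share. The median absolute log2 fold change of the 9 was 0.61, against 0.56 over all entries tested, and their median log2 fold change was -0.10, against -0.02. The groups did not overlap for the same 5 genes, where 76.4% of all entries did not overlap. Without PGK1_OE replicate 2 the number called was 8, because ACSL4, FAR1 and GNPAT passed as well. A log2 fold change is PGK1_OE over WT. Adjusted p-values were obtained with the quasi-likelihood test of edgeR and the Benjamini-Hochberg method over all entries tested.

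**Figure D1:**
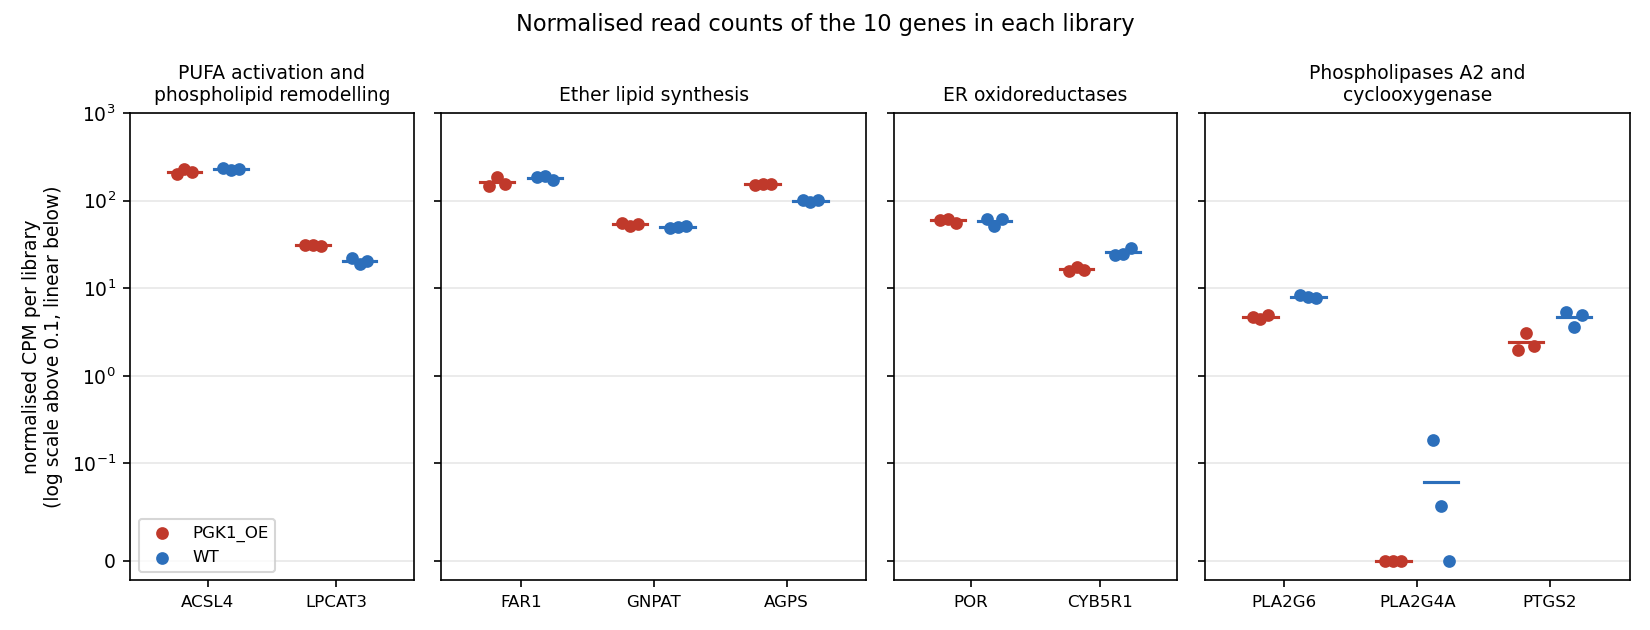
Normalised CPM of each gene in each library, on a log axis above 0.1 and a linear one below. Points are libraries (PGK1_OE in red, WT in blue) and short lines are group means. LPCAT3 and AGPS stand higher in all 3 PGK1_OE libraries, CYB5R1, PLA2G6 and PTGS2 lower, and PLA2G4A has counts in 2 WT libraries.

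On the length-corrected FPKM scale the genes spanned a wide range of levels. ACSL4 was the highest of the set, at 40.1 ± 2.60 FPKM in PGK1_OE and 44.0 ± 0.999 FPKM in WT (SD, n = 3 each), followed by FAR1 at 29.1 ± 3.18 FPKM in PGK1_OE and 33.4 ± 1.73 FPKM in WT. POR came next, at 22.0 ± 1.35 FPKM in PGK1_OE and 22.3 ± 2.33 FPKM in WT. In PGK1_OE the order went on with AGPS, GNPAT, LPCAT3 and CYB5R1, whereas in WT it was GNPAT, CYB5R1, AGPS and LPCAT3. In PGK1_OE, AGPS (18.3 to 19.8 FPKM) and GNPAT (17.7 to 19.6 FPKM) overlapped, while the WT ranges of GNPAT (17.7 to 18.5 FPKM) and AGPS (12 to 13 FPKM) did not. PLA2G6 stood at 1.53 ± 0.184 FPKM in PGK1_OE and 2.88 ± 0.0406 FPKM in WT, and PTGS2 at 0.466 ± 0.111 FPKM in PGK1_OE and 0.947 ± 0.181 FPKM in WT. By mean FPKM over the 6 libraries, 87.5% of all entries tested lay below ACSL4, and 17.2% lay below PTGS2.

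Of the 2 genes that bring polyunsaturated chains into phospholipids, the acyltransferase changed and the acyl-CoA synthetase did not pass. LPCAT3 (ENSG00000111684, chromosome 12, 6976186 to 7018510, minus strand) measured 31.2, 31.3 and 30.5 CPM in the PGK1_OE libraries and 22.0, 18.7 and 20.3 CPM in the WT libraries. The groups were well apart, and the coefficient of variation of the PGK1_OE libraries was 1.53%. LPCAT3 rose 1.53-fold, a log2 fold change of 0.61 ± 0.07 (SE; edgeR adjusted p = 1.44e-05). Its value is uncertain, since 65.6% of its annotated exonic bases (3100 of 4725) are shared with EMG1 on the opposite strand, and the strand setting of the counting is not given in the sources used here. EMG1 itself, a ribosome biogenesis factor, had 10853 counts over the PGK1_OE libraries and 15459 over the WT libraries (-0.58, edgeR adjusted p = 1.22e-07), the direction opposite to LPCAT3. The part of EMG1 reads in the LPCAT3 value was not tested.

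ACSL4 (ENSG00000068366, chromosome X, 109624244 to 109733403, minus strand) measured 199, 229 and 214 CPM in the PGK1_OE libraries and 236, 223 and 228 CPM in the WT libraries. PGK1_OE replicate 2 lay inside the WT range and the other two below it. The log2 fold change was -0.10 (SE 0.05, 95% interval -0.21 to 0.01, edgeR adjusted p = 0.101), an interval that reaches down to 0.866 of the WT level. The call changed without PGK1_OE replicate 2 (-0.15, adjusted p = 0.0198) and with library totals as the scaling (-0.14, adjusted p = 0.0181). ACSL4 shares 78 of 6415 exonic bases with KCNE5 on the same strand, which had 53 counts over the PGK1_OE libraries and 41 over the WT libraries.

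The 3 enzymes of ether lipid synthesis did not move alike. AGPS (ENSG00000018510, chromosome 2, 177392644 to 177559299, plus strand) measured 151, 156 and 155 CPM in the PGK1_OE libraries and 100.3, 95.4 and 103 CPM in the WT libraries. No PGK1_OE library came near the WT range. AGPS rose 1.55-fold (0.63, SE 0.04, edgeR adjusted p = 7.77e-08), the smallest adjusted p of the set. It shares 54 of 8965 exonic bases with NFE2L2 and 220 with TTC30B, both on the opposite strand. GNPAT (ENSG00000116906, chromosome 1, 231241207 to 231277973, plus strand) measured 55.8, 50.6 and 54.4 CPM in the PGK1_OE libraries and 48.4, 49.4 and 51.9 CPM in the WT libraries. The groups overlapped through PGK1_OE replicate 2, and the log2 fold change was 0.10 (SE 0.06, 95% interval -0.02 to 0.23, edgeR adjusted p = 0.121). Without that library it was 0.15 (adjusted p = 0.0494).

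FAR1 (ENSG00000197601, chromosome 11, 13668670 to 13732346, plus strand), the rate-limiting step of the route, measured 147, 184 and 155 CPM in the PGK1_OE libraries and 187, 189 and 174 CPM in the WT libraries. PGK1_OE replicate 2 again sat with the WT libraries and the other two below them, so the coefficient of variation was 11.7% in PGK1_OE and 4.42% in WT. The log2 fold change was -0.18 (SE 0.08, 95% interval -0.37 to 0.02, edgeR adjusted p = 0.0898). FAR1 passed without PGK1_OE replicate 2 (-0.27, adjusted p = 0.00097), with library totals (-0.22, adjusted p = 0.0459), with DESeq2 (-0.17, adjusted p = 0.0246) and with limma on log2(FPKM + 1) (-0.20, adjusted p = 0.0475). On log2(FPKM + 0.1) limma gave -0.21 (adjusted p = 0.0491).

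The electron donors of the endoplasmic reticulum differed from each other too. CYB5R1 (ENSG00000159348, chromosome 1, 202961869 to 202967280, minus strand) measured 15.8, 17.4 and 16.0 CPM in the PGK1_OE libraries and 23.6, 24.7 and 28.5 CPM in the WT libraries. All PGK1_OE libraries were below all WT libraries. CYB5R1 fell by 0.64 in log2 units (SE 0.09, edgeR adjusted p = 4.70e-05), to 0.641 of the WT level, and overlaps no other gene in GENCODE 29. POR (ENSG00000127948, chromosome 7, 75899200 to 75986855, plus strand) measured 60.8, 61.9 and 56.0 CPM in the PGK1_OE libraries and 62.2, 51.3 and 61.4 CPM in the WT libraries. The ranges overlapped, with WT replicate 2 the lowest library. Its log2 fold change was 0.03 (SE 0.08, 95% interval -0.14 to 0.20, edgeR adjusted p = 0.732), and the sign turned to -0.045 without WT replicate 2 and to -0.014 with library totals.

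Among the genes that release or oxidise fatty acids, PTGS2 and PLA2G6 fell. PTGS2 (ENSG00000073756, chromosome 1, 186671791 to 186680427, minus strand) had 78, 121 and 78 raw counts in the PGK1_OE libraries and 201, 129 and 183 in the WT libraries, or 1.95, 3.05 and 2.21 CPM in PGK1_OE and 5.31, 3.65 and 5.0 CPM in WT. The highest PGK1_OE library and the lowest WT library, both replicate 2, lay close together without crossing. PTGS2 fell by 0.95 in log2 units (95% interval -1.47 to -0.43, SE 0.24, edgeR adjusted p = 0.00339), and its coefficient of variation, 23.9% in PGK1_OE and 18.9% in WT, was the widest of the 9 genes tested.

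PLA2G6 (ENSG00000184381, chromosome 22, 38111495 to 38205690, minus strand), the calcium-independent phospholipase, measured 4.72, 4.44 and 4.99 CPM in the PGK1_OE libraries and 8.29, 7.84 and 7.73 CPM in the WT libraries. The groups were far apart relative to their spread. PLA2G6 fell by 0.75 in log2 units (SE 0.13, edgeR adjusted p = 0.000322), to 0.593 of the WT level. It shares 22.5% of its exonic bases with the antisense gene AL022322.2, so its value is uncertain where strand was not used. MAFF, a small MAF transcription factor whose gene overlaps PLA2G6 on the opposite strand without a shared exonic base, had 3189 counts over the PGK1_OE libraries and 16521 over the WT libraries (-2.44, edgeR adjusted p = 3.62e-11). The part of MAFF reads in the PLA2G6 value was not tested.

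PLA2G4A (ENSG00000116711, chromosome 1, 186828953 to 186988981, plus strand), the cytosolic calcium-dependent phospholipase, had 0 counts in each PGK1_OE library and 7, 2 and 0 counts in WT replicates 1, 2 and 3. A count of 0 allows up to 3 counts, which is 0.0740 to 0.0837 CPM in a PGK1_OE library. WT replicate 1 lay above 3 counts and the other WT libraries below, and no fold change is given. With no filter on low counts its edgeR adjusted p was 0.123.

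**Figure D2:**
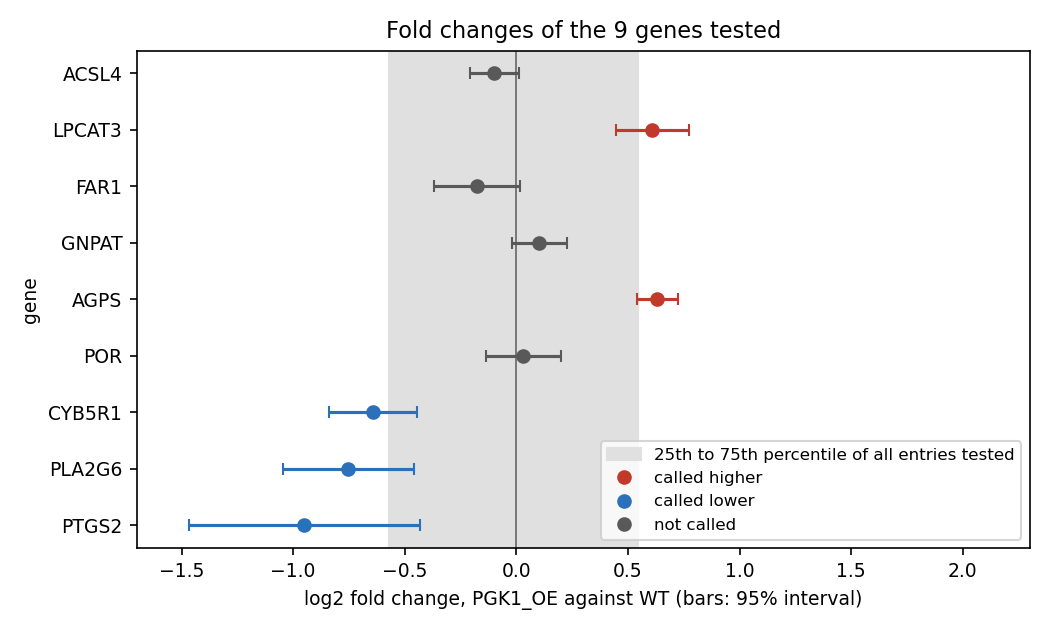
Log2 fold change of the 9 genes tested, PGK1_OE against WT, with 95% intervals. The grey band spans the 25th to the 75th percentile of all entries tested (-0.57 to 0.54). The called genes lie at its edges or beyond, and the intervals of ACSL4, FAR1, GNPAT and POR cross 0.

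Ratios of 2 genes within a library do not depend on how that library was scaled, so 7 pairs were compared as log2 ratios of FPKM. With 3 libraries against 3 the exact permutation test cannot give a p under 0.1, and no ratio can pass. AGPS relative to GNPAT stood at -0.09, 0.12 and 0.08 in the PGK1_OE libraries and -0.52, -0.55 and -0.51 in the WT libraries. The difference of 0.56 (PGK1_OE minus WT) separated the groups completely (exact two-sided permutation p = 0.1, adjusted over 7 ratios p = 0.14). FAR1 relative to AGPS was 0.57, 0.77 and 0.45 in PGK1_OE and 1.43, 1.53 and 1.28 in WT, a difference of -0.81 with the same exact p of 0.1. FAR1 relative to GNPAT overlapped between groups, with a difference of -0.25 (exact permutation p = 0.2, adjusted p = 0.233).

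POR relative to CYB5R1 was 1.33, 1.21 and 1.18 in the PGK1_OE libraries and 0.81, 0.43 and 0.50 in the WT libraries. The groups did not overlap, at a difference of 0.66 (exact permutation p = 0.1, adjusted p = 0.14). LPCAT3 was also set against MBOAT2, an acyltransferase that prefers monounsaturated chains. Their log2 ratio was 0.85, 0.70 and 0.64 in PGK1_OE and 1.56, 1.08 and 1.08 in WT, a difference of -0.51 with no overlap (exact permutation p = 0.1, adjusted p = 0.14), so LPCAT3 was lower relative to MBOAT2 although it rose itself. PTGS2 relative to PTGS1, the cyclooxygenase-1 gene, ranged from -1.19 to -0.21 in PGK1_OE and from -0.11 to 0.70 in WT, a difference of -0.89 without overlap (exact permutation p = 0.1, adjusted p = 0.14). ACSL4 relative to ACSL3, which activates monounsaturated chains, averaged -0.56 ± 0.0704 in PGK1_OE and -0.55 ± 0.19 in WT (SD, n = 3 each), with overlapping groups (exact permutation p = 1). A ratio of PLA2G4A to PLA2G6 was not formed, as PLA2G4A was listed at 0 in 4 libraries.

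**Figure D3:**
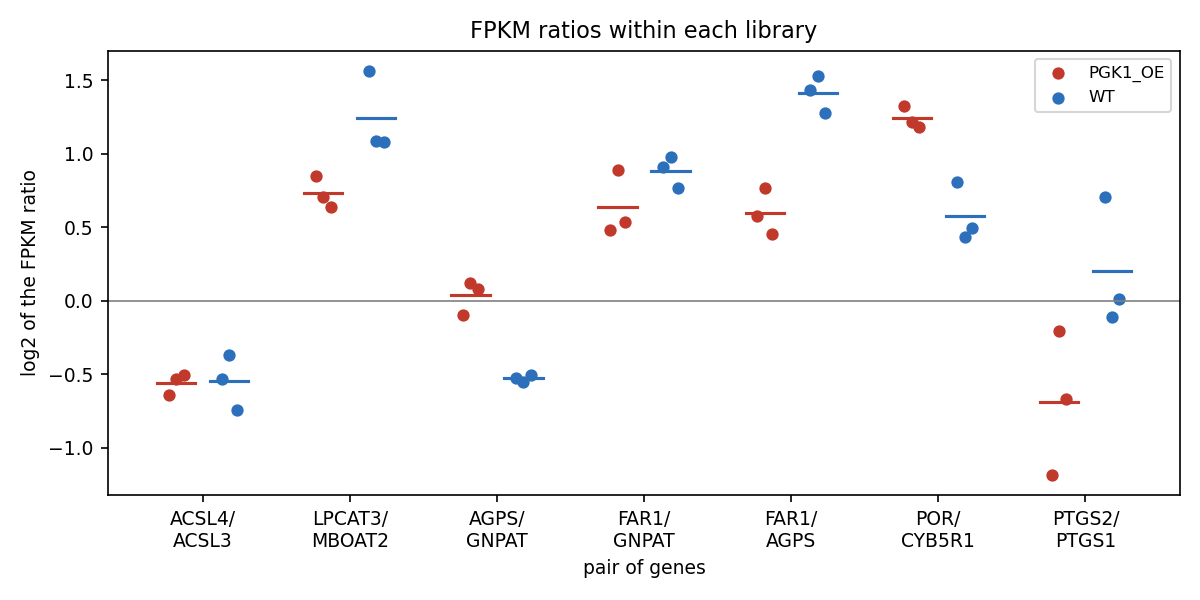
Log2 ratio of the FPKM of 2 genes in each library (points, PGK1_OE in red and WT in blue) with group means (lines). The groups separate for 5 of the 7 pairs and overlap for ACSL4/ACSL3 and FAR1/GNPAT. Each of the 5 pairs holds a gene that was called on its own. For single genes, the normalised CPM of 76.4% of all entries tested did not overlap between groups.

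The other genes of the same pathways were taken from 7 lists holding 64 genes, of which 50 were tested. Of these, 24 rose, 12 fell and 14 did not pass, with a median log2 fold change of 0.19. The 36 called of 50 are close to the 71.2% called over all entries, of which 35.4% were higher and 35.8% lower, and the counts of each list below stand against the same shares. All 8 listed lysophospholipid acyltransferases other than LPCAT3 rose, with a median of 1.21. This list, like the others, was chosen with earlier results of these data known. LPCAT1, which rebuilds saturated phosphatidylcholine, stood at 61.0 ± 4.55 CPM in PGK1_OE and 7.36 ± 0.597 CPM in WT (3.05, SE 0.08, edgeR adjusted p = 8.02e-11). MBOAT7, which places arachidonic acid into phosphatidylinositol, stood at 97.0 ± 2.89 CPM in PGK1_OE and 28.4 ± 2.06 CPM in WT (1.77, SE 0.06, edgeR adjusted p = 3.70e-10). LPCAT4 (1.18), MBOAT2 (1.23) and LPCAT2 (0.88) rose as well, and LPCAT3 stood at 0.61. With the FPKM minimum, 7 of the 8 were tested and rose.

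LPCAT3 made up 21.4%, 21.0% and 21.6% of the summed FPKM of LPCAT1 to LPCAT4 in the PGK1_OE libraries, against 36.5%, 35.0% and 32.1% in the WT libraries. LPCAT1 took 22.3%, 25.4% and 24.4% in PGK1_OE and 7.64%, 7.06% and 6.30% in WT. The shares of LPCAT3 and of LPCAT1 did not overlap between groups, where the normalised CPM of 76.4% of all entries tested did not overlap. The LPCAT3 share rests on a value that is uncertain through the exons shared with EMG1. Among the long-chain acyl-CoA synthetases, ACSL4 held 37.8%, 39.7% and 39.9% of the summed FPKM in PGK1_OE and 38.7%, 41.2% and 35.7% in WT, next to ACSL3 as the most abundant. The shares of ACSL4 overlapped between groups. ACSL5 fell (-1.81, SE 0.13, edgeR adjusted p = 1.60e-07), while ACSL3 was at -0.07 (adjusted p = 0.278) and ACSL1 at 0.19 (adjusted p = 0.281). Without WT replicate 2, ACSL3 passed at -0.12 (adjusted p = 0.0171) and ACSL1 at 0.35 (adjusted p = 0.0436). ACSL6 had 0 counts in all PGK1_OE libraries and 0, 8 and 4 in the WT libraries.

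**Figure D4:**
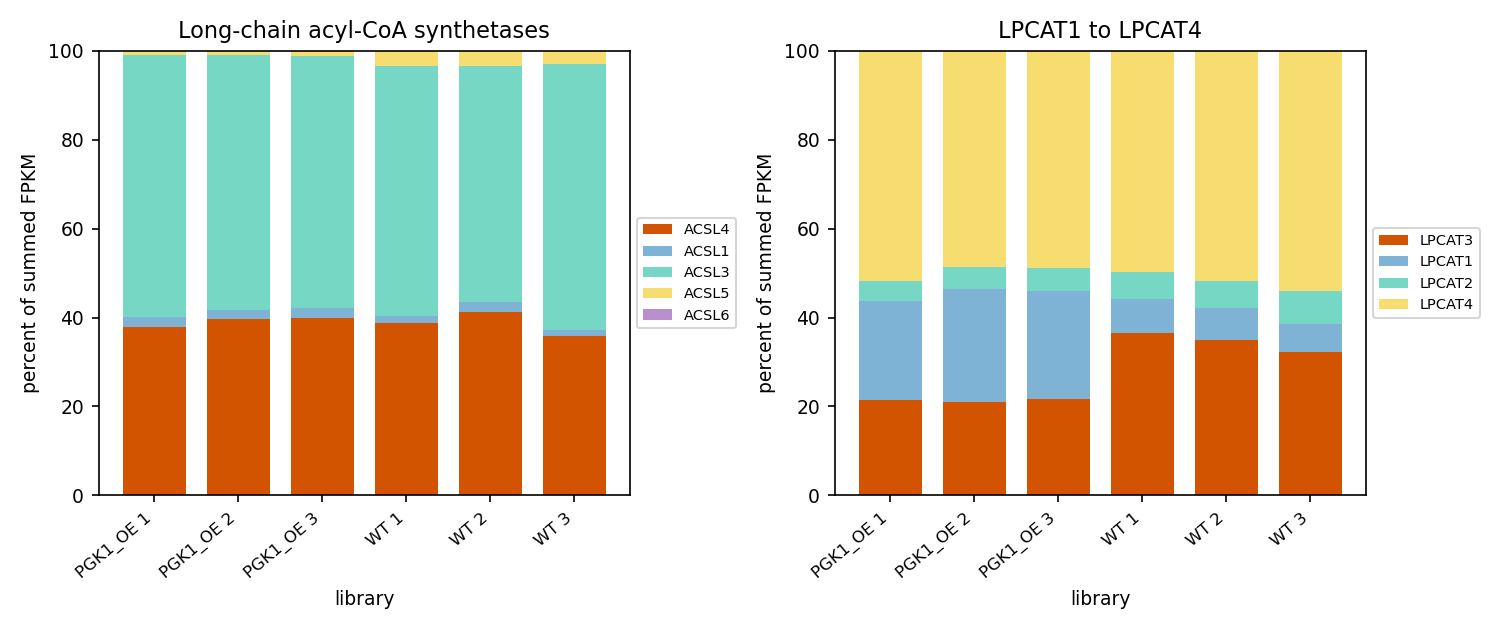
Share of each gene in the summed FPKM of its family, by library, for the 5 long-chain acyl-CoA synthetases (left) and LPCAT1 to LPCAT4 (right). ACSL4 keeps 35.7% to 41.2% in every library, while LPCAT3 holds 21.0% to 21.6% in PGK1_OE and 32.1% to 36.5% in WT. The LPCAT3 value is uncertain through the exons shared with EMG1.

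Of 4 desaturases and elongases that make long polyunsaturated chains, 3 rose and 1 did not pass, next to 71.2% called over all entries. The desaturases FADS1 (0.92, SE 0.06) and FADS2 (1.12, SE 0.10) and the elongase ELOVL5 (0.38, SE 0.08, edgeR adjusted p = 0.00336) were the ones that rose, and ELOVL2 was at -0.03 (adjusted p = 0.785). FADS1 and FADS2 share 490 exonic bases on opposite strands, so their values are uncertain. FADS2 also shares 49 exonic bases on the same strand with FEN1, a flap endonuclease gene with 32217 counts over the PGK1_OE libraries and 2566 over the WT libraries (3.59, edgeR adjusted p = 6.48e-13), and the part of FEN1 reads in the FADS2 value was not tested.

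Of 12 further ether lipid genes, 11 were tested, 6 fell and 1 rose (median -0.42). The 7 called of 11 are not above the 71.2% called over all entries, of which 35.8% were lower. PEX7, the receptor that carries AGPS into peroxisomes, stood at 5.74 ± 0.590 CPM in PGK1_OE and 17.4 ± 1.84 CPM in WT (-1.60, SE 0.12, edgeR adjusted p = 3.06e-07). PEX5, the receptor for the other peroxisomal targeting signal and a partner of PEX7, fell by 0.49 in log2 units (SE 0.06, edgeR adjusted p = 9.52e-06). CEPT1, which adds the head group of choline and ethanolamine phospholipids, fell by 0.51 (SE 0.05, edgeR adjusted p = 4.48e-06). PEDS1, the desaturase that turns an ether lipid into a plasmalogen, was the gene that rose, with 42.8 ± 3.80 CPM in PGK1_OE and 14.5 ± 0.273 CPM in WT (1.56, SE 0.08, edgeR adjusted p = 6.37e-09). Its FPKM varied far more than its counts, at 5.63, 8.88 and 16.7 in the PGK1_OE libraries and 1.92, 3.33 and 1.83 in the WT libraries. The cause of that spread was not tested. PEDS1 shares 8.71% of its exonic bases with the readthrough gene TMEM189-UBE2V1 on the same strand, which had 0 counts in both groups. FAR2, the paralog of FAR1, was at -0.01 (SE 0.11, adjusted p = 0.965).

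Of 5 cytochrome b5 genes and reductases, 3 rose, 1 fell and 1 did not pass, where 71.2% of all entries were called. CYB5R3, the most abundant reductase of the family, rose (0.57, SE 0.04, edgeR adjusted p = 2.26e-07), as did the electron carriers CYB5A (0.62) and CYB5B (0.57), whereas CYB5R4 fell (-0.57, SE 0.05, edgeR adjusted p = 8.40e-07) together with CYB5R1. CYB5R2 had 10 to 22 counts in PGK1_OE and 20 to 37 in WT (-0.84, adjusted p = 0.109). CYB5R1 made up 17.2%, 19.8% and 18.2% of the summed FPKM of CYB5R1 to CYB5R4 in PGK1_OE and 24.4%, 29.6% and 30.8% in WT. CYB5R3 had 80.4 and 80.1 CPM in WT replicates 1 and 2 but 35.9 and 28.3 FPKM, so these shares also depend on how FPKM was computed. CYB5B shares 35.1% of its exonic bases with the non-coding AC026464.2 on the same strand. Limma on the deposited FPKM did not call CYB5B (adjusted p = 0.344 on log2(FPKM + 1)), and without the FPKM minimum it did not call CYB5R3 (adjusted p = 0.0663).

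Of 15 genes of the cyclooxygenase and lipoxygenase routes, 11 were tested, 4 rose and 3 fell, and these 7 are not above the 71.2% called over all entries. The number that fell was 1 when at least 1 CPM in 3 libraries was required, which left 7 genes tested, and 1 with the FPKM minimum, which left 5. PTGS1 was at -0.01 (SE 0.21, 95% interval -0.47 to 0.45, edgeR adjusted p = 0.976), at 3.85 ± 0.754 CPM in PGK1_OE and 3.87 ± 0.624 CPM in WT. The prostaglandin E synthases PTGES3, also a co-chaperone (0.97, SE 0.04), and PTGES2 (0.44, SE 0.05) rose, as did PEBP1, a scaffold that binds lipoxygenases (0.49, SE 0.05), which shares 9.49% of its exonic bases with VSIG10 on the opposite strand. VSIG10 had 3481 counts over the PGK1_OE libraries and 774 over the WT libraries (2.11, edgeR adjusted p = 6.27e-08). The part of VSIG10 reads in the PEBP1 value was not tested. ALOXE3, an epidermal lipoxygenase, had 4, 12 and 25 counts in PGK1_OE and 241, 307 and 264 in WT (-4.33, SE 0.63, edgeR adjusted p = 0.00115). ALOX5 had 0 counts in all 6 libraries, and ALOX15 had 0 counts in each PGK1_OE library and 0, 3 and 10 in the WT libraries. ALOX5 and ALOX15 were named after their values were seen.

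Of 16 further phospholipases A2, 8 were tested, 5 rose and 1 fell, close to the 71.2% called over all entries. PLA2G15, the lysosomal enzyme, stood at 52.8 ± 1.70 CPM in PGK1_OE and 9.92 ± 0.810 CPM in WT (2.41, SE 0.07, edgeR adjusted p = 1.85e-10). PNPLA6 (1.35, SE 0.07) and PNPLA8 (0.54, SE 0.06), which belong to the same patatin-like family as PLA2G6, rose while PLA2G6 fell. PLA2G4C, a paralog of PLA2G4A, fell by 1.84 in log2 units (SE 0.24, edgeR adjusted p = 2.63e-05). PLA2G4B was at -0.18 (adjusted p = 0.681), with 75.6% of its exonic bases shared with the readthrough gene JMJD7-PLA2G4B.

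**Figure D5:**
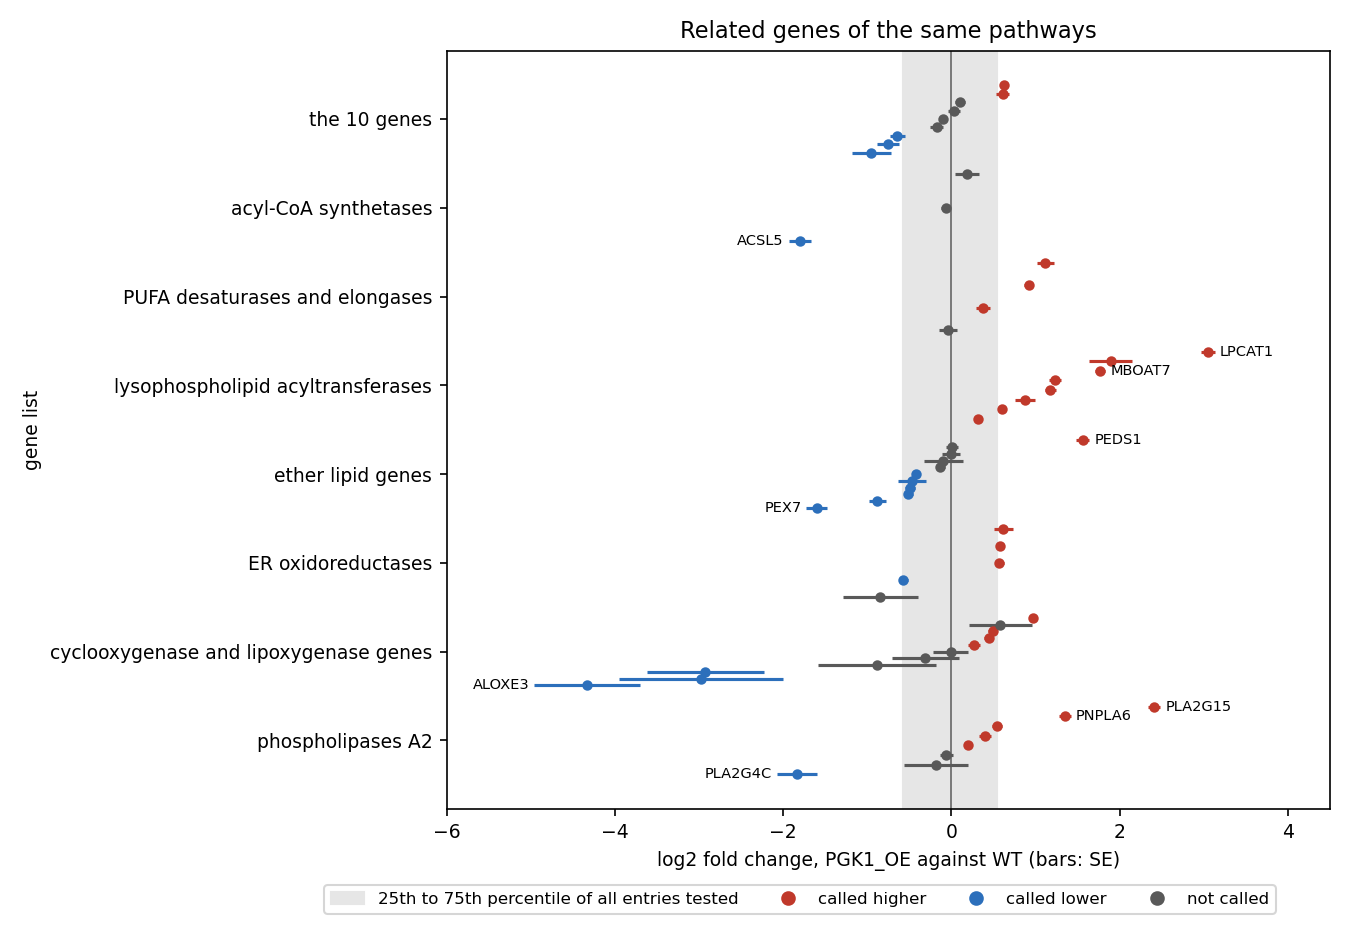
Log2 fold change, PGK1_OE against WT, of every tested gene of the set and of the 7 related lists, with SE bars and the 25th to 75th percentile of all entries tested in grey. All 8 listed lysophospholipid acyltransferases lie to the right, most further ether lipid genes to the left, and the set itself on both sides. Over all entries tested, 35.4% were called higher and 35.8% lower. The lists were chosen with earlier results of these data known.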

How the data were processed

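The submitters' processing notes name fastp, HISAT and genome build hg38, with no versions. Which counter, strand option and annotation were used is not given in the sources used here. Raw counts per gene are deposited in 1 table, and the authors' FPKM, scaled by length and library size, are deposited in another.

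Columns were matched to samples through the labels. Counts were tested in R 4.3.3 with edgeR 4.0.16: filterByExpr by group left 14322 of 21619 entries, followed by TMM scaling (factors 0.982 to 0.987 in PGK1_OE and 1.01 to 1.03 in WT) and a robust quasi-likelihood fit on group, two-sided. SE is the absolute log2 fold change over the square root of F. Replicates were not duplicates, as chi-square divided by its degrees of freedom was 7.67 to 14.6 for each pair. The steps were run on simulated data in which few genes changed, as many up as down. Those data cannot show how the scaling behaves where 71.2% of entries are called. Coordinates are from GENCODE 29 on GRCh38, the build hg38, matched by Ensembl identifier.

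The genes and lists were chosen with earlier results of these data known. Named are all 10 genes, PGK1, the paralogs listed in the design, and up to 4 genes of each related list with the smallest adjusted p, beside marker genes and genes that overlap a named gene. ALOX5 and ALOX15 were added after their values were seen. Alternatives used DESeq2 1.42.0, limma 3.58.1 (voom, and FPKM with pseudocounts of 1 and 0.1, keeping an FPKM of at least 1 in 3 libraries or all), RLE, library totals, PGK1 left out of scaling, other filters, an adjusted p under 0.01, the replicate number as a block, and leaving out each library. Depth limits genes with few counts. Limits on counts of 0 cover counting error only.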

Additional observations from a re-analysis of the deposited data

How the results depend on the processing

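The calls of LPCAT3, AGPS, CYB5R1, PTGS2 and PLA2G6 kept their direction and their side of the threshold under every alternative that tested them. PTGS2 was not tested with the FPKM minimum. The number of the 10 genes called was 5 to 8 when 1 library was left out, with 2 to 3 higher and 3 to 5 lower, and with library totals 5 were lower. The count over all entries was 9694 to 9901 when 1 library was left out. No called gene changed sign. Among genes that were not called, POR turned to -0.014 with library totals, to -0.017 on log2(FPKM + 1) with and without the minimum and to -0.018 on log2(FPKM + 0.1), and spanned -0.045 to 0.086 without 1 library. FAR2 turned to 0.00090 with the replicate block and spanned -0.10 to 0.11 without 1 library, PTGS1 -0.16 to 0.14, PLA2G4B -0.49 to 0.23 and ELOVL2 -0.13 to 0.063. The log2 ratio of ACSL4 to ACSL3, PGK1_OE minus WT, spanned -0.11 to 0.080. Deviations from the group means correlated at r = 0.0102, -0.00677 and 0.123 for same-numbered libraries, and at -0.0875 to 0.0706 for other pairings. With 3 libraries per group these values cannot show whether the numbers pair the samples. With the number as a block 9943 entries and 6 of the 10 genes were called, with FAR1 added (edgeR adjusted p = 0.0247). In pairs, no ratio can reach an exact p under 0.25. Of 729 values of 41 named genes under the alternatives, 698 kept direction and call, 4 lost the call, 11 gained it and 16 changed sign, all of them genes not called. PLA2G4A, ACSL6, ALOX5 and ALOX15 have too few counts for a fold change. The cause of these shifts was not tested.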
